A study of Mus musculus with 4 samples.

Results

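The genes described here encode the machinery that brings newly made proteins into the endoplasmic reticulum (ER), removes their signal peptide, attaches N-linked glycans and packs them for export. They were taken by symbol from the gene column of the read counts: all 35 symbols were found among 35275 listed genes, and they fall into 9 complexes. Liver RNA was measured in 4 groups of female mice of the R1.P1-Apoa2c strain, a SAMR1 congenic line with the amyloid-prone Apoa2c allele; the sample labels give the strain as AKR/J and the genotype as Apoa2c congenic. The groups were VS (saline vehicle, sedentary), VI (saline vehicle, interval training, IT, on a treadmill), FS (intravenous AApoAII fibrils, sedentary) and FI (fibrils, IT). Fibril injection seeds deposition of AApoAII amyloid, and all groups were 26 weeks old after a training period of 16 weeks. RNA was extracted from 1 pool of 4 mice per group, which makes 4 libraries from 16 mice, and no value has a replicate error.

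Hepatocytes secrete most plasma proteins, and nearly all of these enter the ER while they are being translated. The signal recognition particle (SRP) binds the signal peptide on the ribosome and docks at its receptor, the chain passes through the Sec61 channel, signal peptidase cuts the signal peptide off, oligosaccharyltransferase (OST) transfers a preformed glycan to asparagine, and COPII vesicles carry the folded protein to the Golgi. When unfolded protein builds up in the ER, the unfolded protein response (UPR) raises transcription of chaperones such as Hspa5 (BiP), and many genes of this machinery are known targets of its XBP1 and ATF6 branches.

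Total counts were between 23442935 in VS and 28814802 in FS. Levels are given as CPM, counts scaled to a library of 1e+06 after TMM normalization, and ratios between a pair of libraries as log2 ratios with a 95% interval that covers counting error only, since the reads carry no molecular identifiers and differences between mice are not covered. Albumin took between 12.1% and 13.6% of the counts. The skeletal muscle list, 13 genes that liver should lack, summed to 76.4 CPM in VS against 10.3 in VI, 1.22 in FS and 1.12 in FI, so VS stood apart in this respect. Values with VI as the vehicle library are therefore given below for FS.

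Because many promoters of UPR targets carry short elements bound by ATF6 or XBP1, promoters from RefSeq (build GRCm38.p6, 250 bases before to 50 after the start of transcription) were searched on both strands for 3 of them: ERSE (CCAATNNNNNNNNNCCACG), ERSE-II (ATTGGNCCACG), which shares CCACG with ERSE, and the UPRE core (TGACGTG). A promoter was given for 27 of the 35 genes. ERSE was found in 0 of these 27, in 3 of 8 promoters of UPR genes (Hspa5, Hsp90b1 and Creld2) and in 0.119% of all 32851 promoters. ERSE-II was found in 1 of 27, that of Krtcap2, in 1 of 8 UPR promoters, that of Dnajb11, and in 0.0365% of all promoters. Both of these named matches lie after the start, at bases 18 to 28 for Krtcap2 and 8 to 18 for Dnajb11. The UPRE core was found in 2 of 27, those of Sec24d and Srpr, in 1 of 8 UPR promoters, that of Hspa5 (-157 to -151), and in 2.01% of all promoters. The 100 bases before the start are printed for the latter pair and, for comparison, for Hspa5, 5′ to 3′ on the plus strand with the element in capitals: chr3:123267396-123267495 for Sec24d, chr9:35211103-35211202 for Srpr and chr2:34771990-34772089 for Hspa5.
Sec24d: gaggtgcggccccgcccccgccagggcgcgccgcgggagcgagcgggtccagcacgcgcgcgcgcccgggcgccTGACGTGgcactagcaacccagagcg
Srpr: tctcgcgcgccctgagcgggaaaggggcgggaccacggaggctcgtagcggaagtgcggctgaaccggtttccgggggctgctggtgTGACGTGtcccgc
Hspa5: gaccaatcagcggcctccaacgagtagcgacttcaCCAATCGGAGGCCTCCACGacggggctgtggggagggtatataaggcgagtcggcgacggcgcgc
The capitals mark the UPRE core in Sec24d (-26 to -20 from the start) and Srpr (-13 to -7) and ERSE in Hspa5 (-65 to -47). These are matches of letters in a window, and binding was not measured.

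Of the 35 genes, 34 reached 1 CPM in at least 1 library, and each of the 34 had at least 179 counts in every library and between 7.58 and 287 CPM. The exception was Srp54a, which encodes the SRP subunit that binds the signal peptide: it had 1 count in VS and 0 in the other libraries, which allows up to 0.123 CPM in VI, 0.102 in FS and 0.124 in FI. The near-identical copy Srp54b had 143 counts in VS and 177 in VI, against 344 in FS and 198 in FI, and reads of both copies cannot be told apart with certainty, so neither is used further. The summed level of all members was 2166 CPM in VS and 2315 in VI, against 3339 in FS and 2744 in FI.

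**Figure D1:**
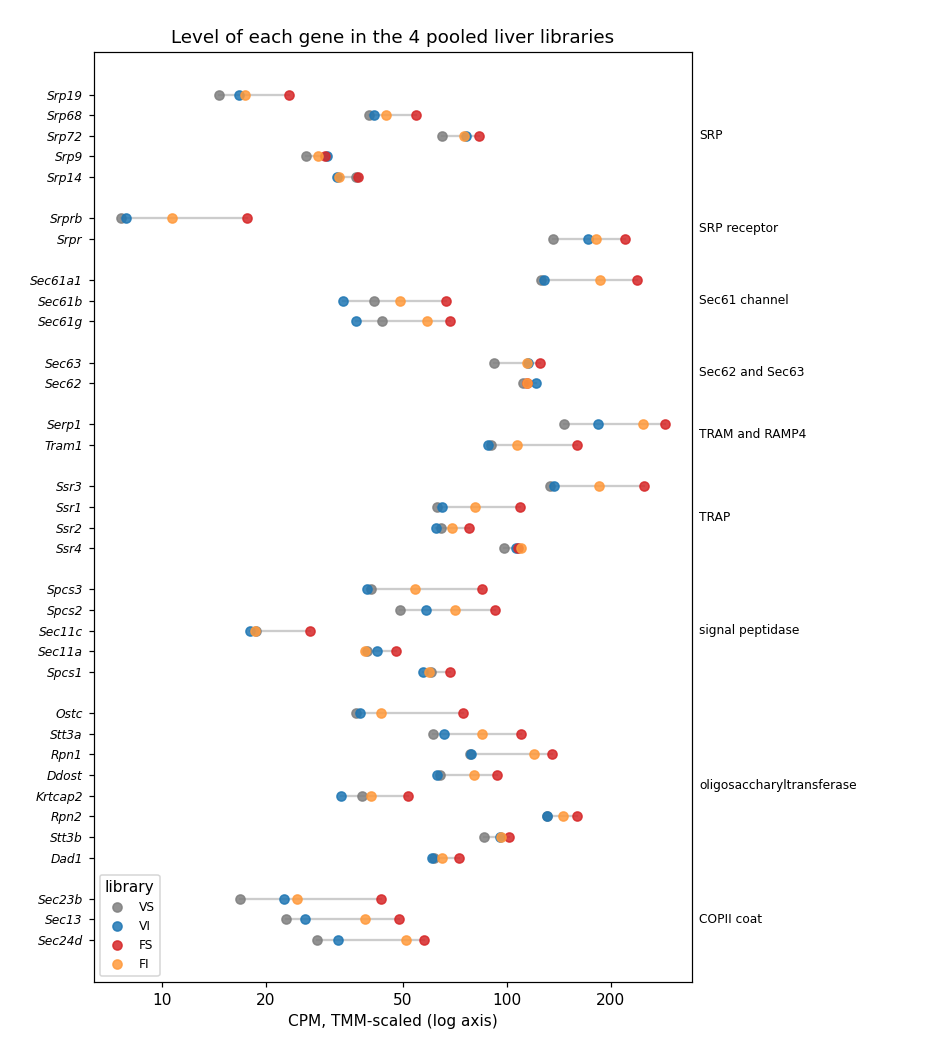
Level of each of the 34 genes (CPM, TMM-scaled, log axis) in the 4 pooled libraries, grouped by complex; a point is 1 library, and the grey line spans the lowest to the highest. FS (red) is the highest of the 4 points for 31 of 34 genes (background 26.3%).

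The first question was how the machinery differed between fibril and vehicle livers of sedentary mice. In FS, all 34 genes were higher than in VS, against a background of 52.0% of the 12180 genes compared, and the median log2 ratio was 0.66 against 0.02 over all genes. The interval lay above 0 for 32 of 34 (background 27.2%), the exceptions being Srp14 and Sec62. Ratios above 1.5-fold were seen for 18 (background 10.1%) and above 2-fold for 6 (background 3.60%), namely Srprb, Spcs3, Ostc, Sec13, Sec23b and Sec24d. None was lower by 1.5-fold (background 7.47%) or 2-fold (background 2.20%). With VI in place of VS, a choice made after the data had been seen, 32 of 34 were higher in FS and 2 exceeded 2-fold. The median was 0.61 against 0.01 over all genes, and the shares of all genes were not counted for this choice.

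In trained mice the ratios were smaller. Between FI and VI, 29 of 34 were higher (background 51.3%), the median log2 ratio was 0.19 against 0.01 over all genes, 3 exceeded 1.5-fold (Sec61g, Rpn1 and Sec24d; background 7.90%) and 0 exceeded 2-fold (background 2.59%). The interval lay above 0 for 20 (background 23.1%) and below 0 for 1, Sec62 (background 23.8%), and 0 were lower by 1.5-fold (background 6.08%) or 2-fold (background 1.95%). The FS versus VS ratio was larger than the FI versus VI ratio for 32 of 34 (background 51.2%), and both fibril libraries were above both vehicle libraries for 26 (background 24.4%). These 2 comparisons share no library; across the 34 genes, which are not independent replicates, the correlation was r = 0.68 (Pearson) and rho = 0.73 (Spearman), so genes with a large ratio in sedentary livers tended to have a large one in trained livers.

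**Figure D2:**
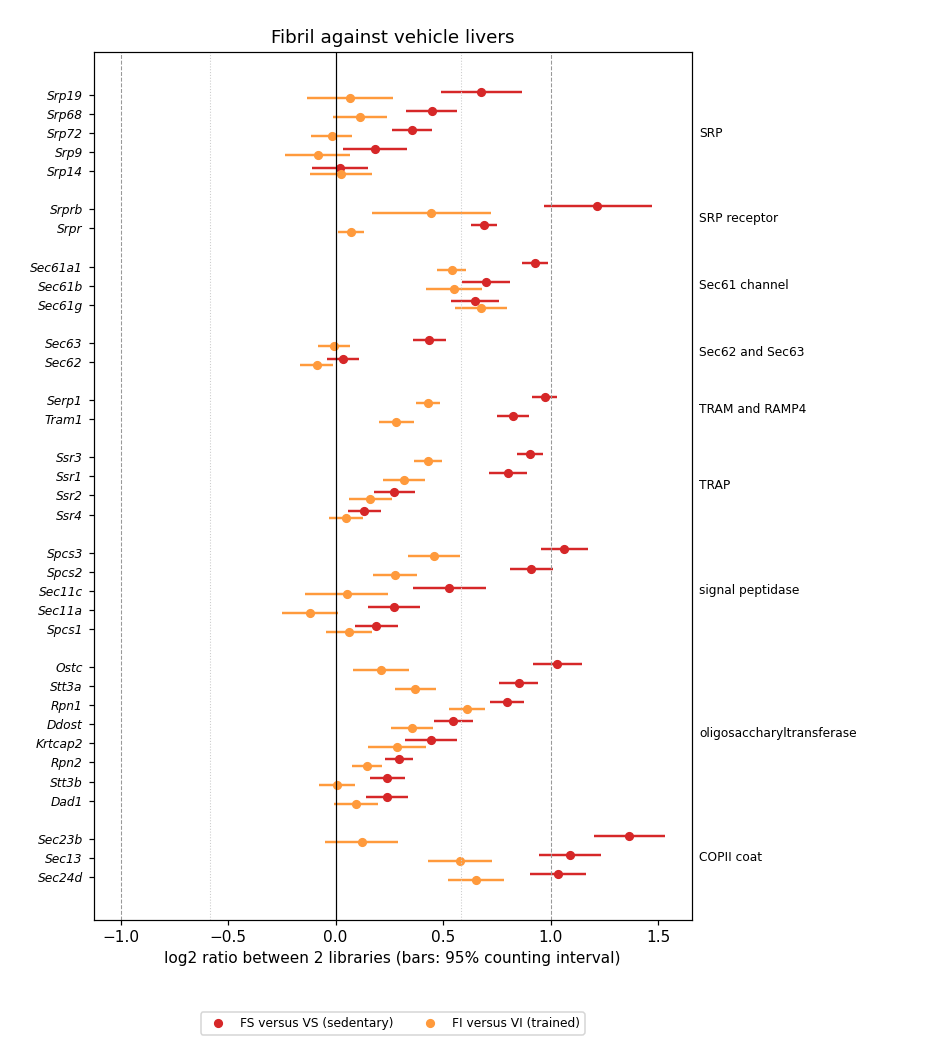
Log2 ratios of fibril against vehicle livers in sedentary (FS versus VS, red) and trained mice (FI versus VI, orange), with bars for the 95% counting interval; dashed lines mark 2-fold and dotted lines 1.5-fold. All red points lie right of 0, and 32 of them lie right of their orange partner.

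A model with additive terms for amyloidosis and IT leaves 1 residual degree of freedom, which is the interaction. Over 11760 genes, edgeR's quasi-likelihood test of this model with Benjamini-Hochberg adjustment called 10 of the 34 genes higher with amyloidosis at an adjusted p below 0.05 (background 2.81%) and 0 lower (background 2.17%; 255 genes in all were called lower). The 10 were all 3 Sec61 subunits, Serp1, Ssr3, Spcs3, Stt3a, Rpn1, Sec13 and Sec24d, and 18 of 34 had an unadjusted p below 0.05 (21.4% of all genes). DESeq2 and limma-voom in the same design called 10 and 12 (3.99% and 5.71% of all genes, in either direction), the same 10 among them. With amyloidosis as the only term, 0 of 34 were called (8 of all 11760 genes), with 17 of 34 at an unadjusted p below 0.05 (13.8% of all genes), so the calls depend on including the IT term. In the complexes below, "rose" is used for these 10 only, and adjusted p-values come from this model. The SE printed with a change is its absolute value divided by the square root of the F statistic of that test. Because the only residual is the interaction, neither the SE nor the p-values measure the spread between mice.

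SRP and its receptor bring the ribosome to the membrane. The 5 measured SRP genes had a median log2 ratio of 0.35 in FS versus VS, with the interval above 0 for all but Srp14, and 0.03 in FI versus VI, and 0 of 5 passed the test. Srp19, which helps assemble the particle around its RNA, had 14.6 CPM in VS and 16.7 in VI, against 23.4 in FS and 17.4 in FI. FS thus stood above the other 3, which lay close together, and the log2 ratio was 0.68 (0.49 to 0.87) in FS versus VS, whereas FI versus VI gave 0.07 (-0.13 to 0.27). Srp68 and Srp72, which form a heterodimer on the RNA, had ratios of 0.45 and 0.35 in FS versus VS. Srp9 and Srp14, the pair that slows translation during targeting, had the smallest, 0.18 and 0.02.

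Both receptor genes were higher in FS than in any other library. Srpr, the alpha subunit that binds SRP, was at 136 CPM in VS and 172 in VI, against 219.9 in FS and 181 in FI. Srprb, the membrane-anchored beta subunit and the lowest in CPM of the 34 members, was at 7.58 CPM in VS and 7.84 in VI, against 17.6 in FS and 10.7 in FI. FS exceeded VS by a log2 ratio of 0.69 (0.63 to 0.75) for Srpr and 1.22 (0.97 to 1.47) for Srprb, whereas FI exceeded VI by 0.07 (0.01 to 0.13) and 0.44 (0.17 to 0.72). Neither passed the test: the adjusted p was 0.224 for Srpr, whose promoter holds a UPRE core, and 0.0609 for Srprb.

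In the Sec61 channel all 3 subunits rose. Sec61a1 (ENSMUSG00000030082, chr6:88503601-88518905), the pore itself, had 125 CPM in VS and 128 in VI, against 238 in FS and 186 in FI, a log2 change with amyloidosis of 0.73 ± 0.13 (SE; adjusted p = 0.0201). Sec61b (ENSMUSG00000053317), a small subunit beside the pore, had 41.1 CPM in VS and 33.4 in VI, against 66.7 in FS and 49.0 in FI (0.62 ± 0.11; adjusted p = 0.0203). Sec61g (ENSMUSG00000078974), the clamp that holds the pore together, had 43.5 CPM in VS and 36.6 in VI, against 68.2 in FS and 58.5 in FI (0.66 ± 0.11; adjusted p = 0.0147). For each subunit both fibril libraries stood above both vehicle libraries. Sec61g was 1 of 2 genes whose ratio was not smaller in trained than in sedentary livers, with 0.68 (0.55 to 0.80) when trained against 0.65 (0.54 to 0.76) when sedentary; the other was Srp14. The second alpha gene, Sec61a2, was at 0.808 to 1.30 FPKM, a level scaled by gene length and library total, against 40.1 to 77.5 FPKM for Sec61a1, and its FS versus VS ratio was lower by 1.30 (0.77 to 1.82).

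Sec62 and Sec63, which serve chains that enter after or late in translation, had smaller ratios. Sec62 had 111 CPM in VS and 121 in VI, against 114 in FS and 114 in FI, and its FS versus VS ratio of 0.04 (-0.04 to 0.11) was not distinguishable from 0 at this depth. Sec63, the partner that recruits Hspa5 to the channel, was at 92.1 CPM in VS and between 115 and 125 in the other libraries, so it was VS that was low. Neither passed the test.

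Proteins that assist the channel were higher in FS. Serp1 (RAMP4, ENSMUSG00000027808, chr3:58521969-58525873), a small protein that binds open translocons, had 146 CPM in VS and 184 in VI, against 287 in FS and 249 in FI and rose with amyloidosis by 0.70 ± 0.15 (adjusted p = 0.0374). Tram1, a membrane protein that contacts the signal peptide, had 90.3 CPM in VS and 88.0 in VI, against 160.2 in FS and 107 in FI, with an adjusted p of 0.0742. FS stood apart for Tram1, while for Serp1 FI was nearly as high. Tram2, a relative of Tram1, had 23.0 CPM in VS and 32.6 in VI, against 30.4 in FS and 41.7 in FI. The Tram1 ratio exceeded the Tram2 ratio by 0.43 (0.26 to 0.60) in FS versus VS. In FI versus VI the difference was -0.07, with an interval that included 0 (-0.23 to 0.09). In FI versus FS the Tram1 ratio was lower than the Tram2 ratio by a log2 difference of -1.04 (-1.18 to -0.89).

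The 4 TRAP genes encode a complex that sits beside Sec61 and helps weak signal peptides open it. Ssr3 (TRAP gamma, ENSMUSG00000027828) had 134 CPM in VS and 137 in VI, against 251 in FS and 185 in FI and rose by 0.66 ± 0.14 (adjusted p = 0.0354). Ssr1 (TRAP alpha) had 62.7 CPM in VS and 64.7 in VI, against 109 in FS and 80.7 in FI (adjusted p = 0.0591). The other two were flatter. Ssr2 lay between 62.2 and 77.9 CPM and Ssr4 between 98.1 and 110.04 CPM, so subunits of 1 complex had FS versus VS ratios between 0.13 and 0.90.

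The signal peptidase genes showed the same inequality. Spcs3 (ENSMUSG00000054408, chr8:54520433-54529998), an accessory subunit that the enzyme requires, had 40.5 CPM in VS and 39.3 in VI, against 84.7 in FS and 54.0 in FI and rose by 0.76 ± 0.15 (adjusted p = 0.0352). Spcs2, which faces the cytosol and contacts the translocon, had 49.1 CPM in VS and 58.5 in VI, against 92.4 in FS and 70.8 in FI (adjusted p = 0.0815). FS was the highest library for both, and FI lay between FS and the vehicle libraries. Spcs1, the small subunit, had an FS versus VS ratio of 0.19 (0.09 to 0.29). The catalytic subunits Sec11a and Sec11c are alternatives in separate forms of the enzyme. Sec11a lay between 38.7 and 47.6 CPM and Sec11c between 17.9 and 26.9 CPM. The FS versus VS ratio was 0.53 for Sec11c and 0.27 for Sec11a, a difference of 0.26 (0.05 to 0.46). In FI versus VI the difference was 0.17, with an interval that included 0 (-0.06 to 0.40).

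OST exists in a form with Stt3a, which works at the translocon during translation, and a form with Stt3b, which glycosylates sites that were skipped. Stt3a (ENSMUSG00000032116, chr9:36729344-36767679) had 60.9 CPM in VS and 65.6 in VI, against 109.98 in FS and 84.8 in FI and rose by 0.61 ± 0.14 (adjusted p = 0.0440). Stt3b had 85.8 CPM in VS and 95.4 in VI, against 101 in FS and 95.9 in FI (adjusted p = 0.605). The FS versus VS ratio was larger for Stt3a than for Stt3b by 0.61 (0.49 to 0.73), and the FI versus VI ratio by 0.36 (0.24 to 0.49). Per length, Stt3a was at 10.5 FPKM in VS and 19.2 in FS, and Stt3b at 20.6 FPKM in VS and 24.8 in FS. The catalytic subunits were thus closer in level in FS than in VS.

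Ostc and Krtcap2 encode subunits that tie the Stt3a form to the translocon. Ostc had 36.6 CPM in VS and 37.4 in VI, against 74.7 in FS and 43.2 in FI, which left FS alone above the rest (adjusted p = 0.130). Krtcap2, whose promoter holds ERSE-II, had 37.9 CPM in VS and 33.0 in VI, against 51.5 in FS and 40.3 in FI (adjusted p = 0.119). Among the subunits shared by both forms, Rpn1 (ribophorin I, ENSMUSG00000030062, chr6:88084473-88105304), which presents some substrates to the enzyme, had 78.0 CPM in VS and 78.6 in VI, against 135 in FS and 120.3 in FI and rose by 0.70 ± 0.11 (adjusted p = 0.0140). Both fibril libraries stood well above both vehicle libraries. The structural subunits Rpn2, Ddost and Dad1 had FS versus VS ratios of 0.29, 0.55 and 0.24, and did not pass the test.

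The 3 COPII genes had the largest median ratio of the 9 complexes in FS versus VS, 1.09, and 0.58 in FI versus VI. Sec13 (ENSMUSG00000030298, chr6:113728067-113740743), part of the outer cage, had 22.9 CPM in VS and 25.9 in VI, against 48.8 in FS and 38.7 in FI and rose by 0.83 ± 0.15 (adjusted p = 0.0174). Sec24d (ENSMUSG00000039234, chr3:123267496-123365635), a cargo adaptor whose promoter holds a UPRE core, had 28.2 CPM in VS and 32.4 in VI, against 57.6 in FS and 51.0 in FI and rose by 0.84 ± 0.13 (adjusted p = 0.0119). For both genes FS and FI stood above VS and VI. Sec23b, the inner-coat partner of Sec24, had 16.8 CPM in VS and 22.6 in VI, against 43.2 in FS and 24.6 in FI (adjusted p = 0.247). Its ratio was 1.36 (1.20 to 1.53) in FS versus VS but 0.12 (-0.05 to 0.29) in FI versus VI, so it was high in 1 of 4 libraries.

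Ratios of COPII members differed from those of their paralogues by more than counting error. The FS versus VS ratio of Sec24d exceeded that of Sec24a by 1.08 (0.93 to 1.24), that of Sec24b by 1.22 (1.01 to 1.42) and that of Sec24c by 0.79 (0.64 to 0.95). Sec23b exceeded Sec23a by 1.12 (0.93 to 1.32) in FS versus VS, but in FI versus VI it was lower than Sec23a by a log2 difference of -0.32 (-0.51 to -0.12).

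**Figure D3:**
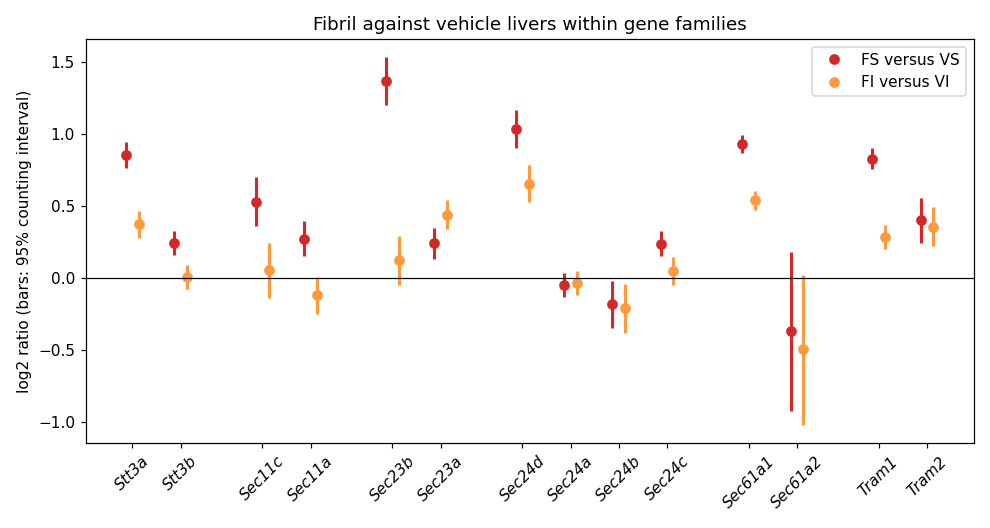
Log2 ratios of fibril against vehicle livers (FS versus VS, red; FI versus VI, orange) with 95% counting intervals, for members and their closest relatives in 6 gene families. Sec24d lies above Sec24a, Sec24b and Sec24c in both comparisons, and Sec23b lies above Sec23a in the sedentary comparison but not in the trained one.

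The next question was how trained and sedentary livers differed, with and without fibrils. In vehicle livers the members differed little: 23 of 34 were higher in VI than in VS (background 50.7%), with a median log2 ratio of 0.05, and 0 exceeded 1.5-fold in either direction (backgrounds 5.34% higher and 6.30% lower) or 2-fold (backgrounds 1.54% and 1.90%). The interval lay above 0 for 13 (background 22.3%) and below 0 for 4 (background 21.7%), the latter Srp14, Sec61b, Sec61g and Krtcap2. In fibril livers 33 of 34 were lower in FI than in FS (background 49.8%), with a median of -0.28 against 0.00 over all genes, and the interval lay below 0 for 31 (background 23.9%). Ratios more than 1.5-fold lower were seen for 4 (background 7.55%), namely Sec23b (-0.81), Ostc (-0.79), Srprb (-0.73) and Spcs3 (-0.65). None was more than 2-fold lower (background 2.53%). The 1 gene that was not lower (background 50.2% higher) was Ssr4, at 0.03 (-0.04 to 0.11). Thus 0 were higher by 1.5-fold (background 5.98%) or 2-fold (background 1.75%), and the interval lay above 0 for 0 (background 24.3%). FI versus FS uses the same FS library as FS versus VS, so it is not independent of that comparison. FS was the highest of the 4 libraries for 31 of 34 genes (background 26.3%).

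The change with IT in fibril minus that in vehicle livers is, by arithmetic, the same quantity as the FI versus VI ratio minus the FS versus VS ratio, so the 32 of 34 genes below 0 are those already counted. It had a median of -0.38 on the log2 scale and an interval below 0 for 27 (background 19.9%). It was lowest for Sec23b, -1.24 (-1.48 to -1.01), followed by Ostc at -0.82 (-0.99 to -0.65) and Srprb at -0.77 (-1.14 to -0.41). For 10 members the change with IT was upward in vehicle and downward in fibril livers with both intervals away from 0 (background 3.04%). Among them Stt3a, Stt3b and Sec13 had a bound close to 0. The difference between both changes has no test across mice. In the additive model, 0 of 34 changed with IT (backgrounds 0.765% higher and 0.714% lower). An unadjusted p below 0.05 was seen for 2 (14.7% of all genes), and the smallest adjusted p was 0.185, for Sec61b. DESeq2 and limma-voom also called 0 (1.53% and 1.8% of all genes).

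**Figure D4:**
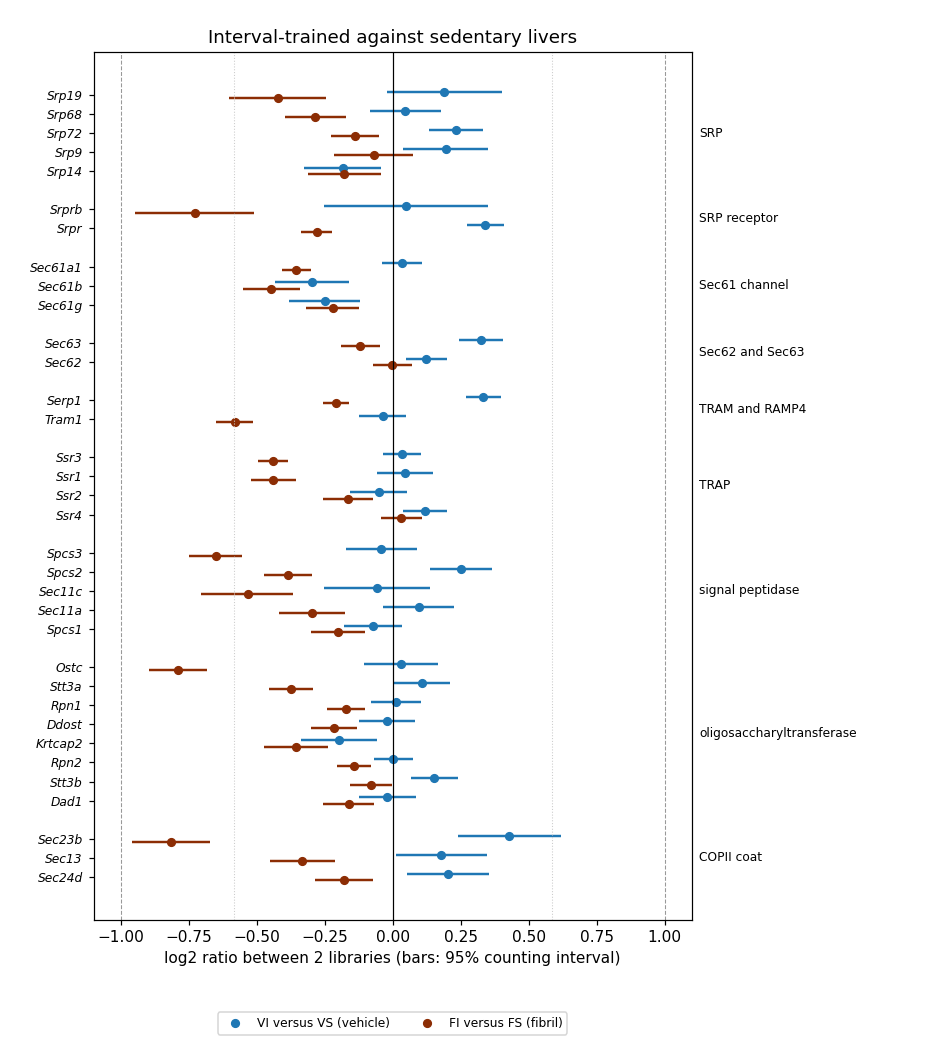
Log2 ratios of trained against sedentary livers in vehicle (VI versus VS, blue) and fibril mice (FI versus FS, brown), with bars for the 95% counting interval; dashed lines mark 2-fold and dotted lines 1.5-fold. The brown points lie left of 0 for 33 of 34 genes, while the blue points scatter on both sides.

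Other genes of the pathway gave a reference for how far this extended. Of 79 symbols listed, 78 were found and 76 were compared. The median log2 ratio was 0.21 in FS versus VS, with 49 higher (background 52.0%). In FI versus VI it was 0.06, with 48 higher (background 51.3%). The model called 3 of 76 higher with amyloidosis and 0 lower, a count near the background of 2.81%. These were Uggt1, the glycoprotein folding sensor that returns misfolded chains to calnexin (0.88 ± 0.13; adjusted p = 0.0094), Magt1, the oxidoreductase subunit of the Stt3b form (0.64 ± 0.12; adjusted p = 0.0219), and Dhdds, which makes the dolichol carrier of the glycan (0.62 ± 0.13; adjusted p = 0.0315). Magt1 had 39.4 CPM in VS and 37.5 in VI, against 67.8 in FS and 53.4 in FI, and Uggt1 had 31.8 and 36.7 CPM against 66.7 and 59.7, so both fibril libraries were above both vehicle libraries. The GET and EMC insertion routes handle membrane proteins without a cleaved signal peptide. Their 15 genes compared had a median of -0.01 in FS versus VS, with ratios between -0.74 and 0.53. The model called 0 of these 15 with amyloidosis (backgrounds 2.81% higher and 2.17% lower), a count near those shares. The 8 other translocon genes compared had a median of -0.01, the 4 other OST genes 0.53, the 6 glycan trimming genes 0.20, the 11 other COPII genes 0.24 and the 9 cargo receptor genes 0.37. The 23 genes that build the glycan on dolichol had a median of 0.26, and Alg12, a mannosyltransferase singled out after its values were seen, had 3.39 CPM in VS and 3.57 in VI, against 8.81 in FS and 4.92 in FI. At 1.5-fold, 7 of the 76 were higher in FS versus VS (background 10.1%) and 3 lower (background 7.47%). The 3 were Dpm1 (-0.81), Sar1b (-0.75) and Emc9 (-0.74), also named after their values were seen. Sar1b, from the other COPII genes, had 234 CPM in VS and 225 in VI, against 139 in FS and 190 in FI.

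The UPR list of 10 genes had larger ratios than the members. Its median was 1.66 in FS versus VS, with 10 of 10 higher (background 52.0%) and 9 above 2-fold (background 3.60%). In FI versus VI the median was 0.98. In FI versus FS it was -0.49, with 10 of 10 lower (background 49.8%). Hspa5, the ER chaperone, had 308 CPM in VS and 430.3 in VI, against 1161 in FS and 823 in FI. Both fibril libraries were thus above both vehicle libraries, as for 26 of the members (background 24.4%). The model called 8 of the 10 genes higher with amyloidosis (background 2.81%). The UPR had already been described in these data, so it is no independent support for the members' direction.

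**Figure D5:**
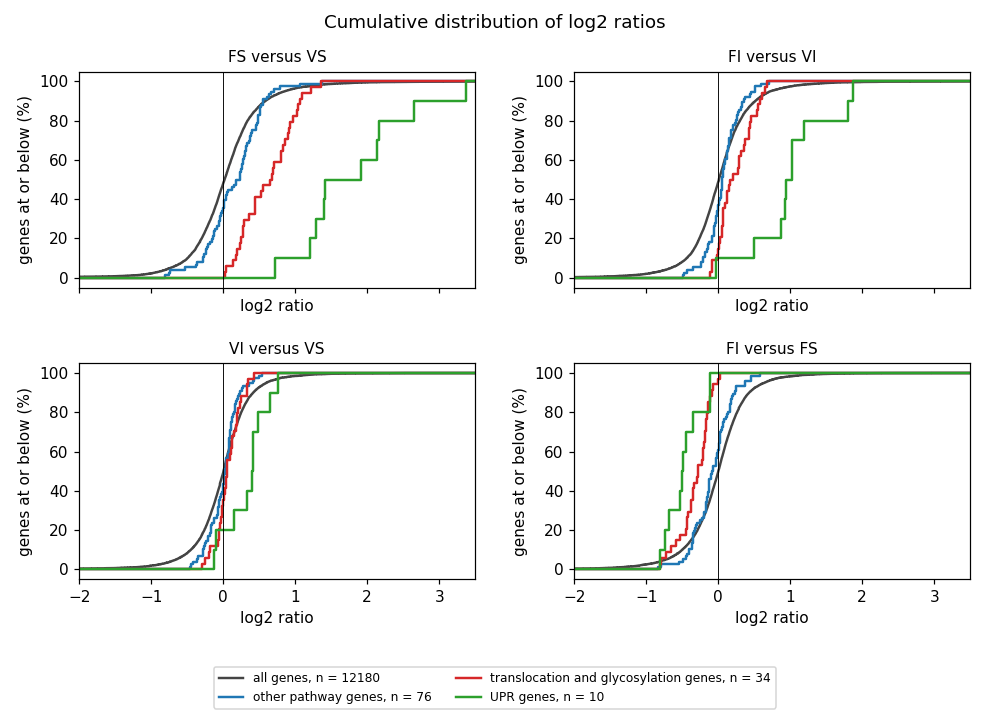
Cumulative share of genes (%) at or below a log2 ratio, for all 12180 genes, 76 other pathway genes, the 34 translocation and glycosylation genes and 10 UPR genes, in the 4 comparisons. In FS versus VS the members' curve starts at 0 and lies right of all genes, with the UPR genes further right; in FI versus FS the members and UPR genes lie to the left.

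Genes of other cell types that could carry this machinery also differed between libraries. Of 8 plasma cell symbols 7 were found, and they summed to 31.2 CPM in VS and 22.7 in VI, against 48.4 in FS and 39.4 in FI. Igha had 7.62 CPM in VS and 4.97 in VI, against 14.8 in FS and 13.8 in FI, and Igkc 10.4 and 7.14 against 17.5 and 13.3. The model called these 2 of 4 tested higher with amyloidosis (background 2.81%). Jchain was also higher in both fibril libraries, whereas Ighm was at 8.64 CPM in VS and 8.30 in FS. Mzb1, an ER protein of plasma cells, Iglc2 and Tnfrsf17 were under 1 CPM in each library. The 6 Kupffer cell genes summed to 185 CPM in VS and 234 in VI, against 288 in FS and 278 in FI, and the 8 neutrophil genes to 2.58, 3.16, 17.4 and 13.1 CPM in the same order. Most of the neutrophil sum in fibril livers was 1 gene, Prtn3, at 13.1 CPM in FS and 10.1 in FI; S100a8 and S100a9 were at 2.20 and 1.76 CPM in FS, and the other 5 had at most 5 counts in any library. Of 8 acinar genes of the pancreas, a tissue rich in this machinery, 6 had no count in any library and Ctrb1 had 2 counts, in VI. Cela2a made up nearly all of the acinar sum, which was highest in FS as for most members: it had 10 counts in VS and 17 in VI, against 76 in FS and 14 in FI, or 0.42, 0.70, 2.57 and 0.58 CPM. The 7 hepatocyte genes summed to between 152350 and 170455 CPM, of which Alb made up most, at 119865 to 135778 CPM. Single genes differed more: 5 were higher in FS than in VS (background 52.0%) and 2 lower (background 48.0%). Tat had 938 CPM in VS and 2018 in VI, against 3226 in FS and 5278 in FI, and Apoa2 8482 and 6584 against 5451 and 5627. Lymphocyte genes summed to between 1.56 and 3.35 CPM and bile duct genes to between 3.47 and 5.42. Stellate cell genes summed to between 132 and 159, endothelium genes to between 135 and 157 and erythroid genes to between 253 and 359.8. None of these sums was highest in FS, but single genes differed. The model called 1 of 5 endothelium genes and 1 of 1 tested bile duct gene higher with amyloidosis (background 2.81%). Among 4 erythroid and 5 stellate cell genes tested it called 0 higher. The part of the Kupffer cell, plasma cell, Prtn3 and Cela2a signals in the members' ratios was not tested, and in pooled tissue a change in the number of cells of a type and a change in RNA per cell cannot be told apart.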

How the data were processed

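Liver RNA of 4 groups was sequenced as 1 pooled library per group. The authors deposited read counts per gene without normalization, and FPKM values; all 69722 deposited FPKM values above 0 were within 0.001 of the ratio expected from count, gene length and total count. The submitters' processing notes name fastp 0.23.2, STAR 2.5, HTSeq 0.6.1 and mm10; no annotation is named there. The authors tested counts with edgeR.

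The software was DESeq2 1.42.0, limma 3.58.1 and edgeR 4.0.16 under R 4.3.3, with matplotlib 3.10.9 under Python 3.11.15 for figures. Ratios used TMM-scaled CPM, a prior of 0.5 counts and exact conditional binomial (Clopper-Pearson) intervals at 95%, for the 12180 genes that reached 1 CPM in 1 library or more. Differences between ratios, such as fibril minus vehicle or between paralogues, have 95% intervals from a normal approximation. Its variance came from the counts with the same prior of 0.5. The additive model (3 coefficients) was fitted with robust quasi-likelihood dispersions in edgeR to the 11760 genes that reached 1 CPM in 2 or more libraries, with TMM recomputed after the filter and Benjamini-Hochberg adjustment at 0.05 over all of them. Its script was run on simulated Poisson counts with amyloidosis effects but no IT effect and no interaction. That run checks the code and says nothing about calls for genes with an interaction. A count of 0 allows up to 3 counts. Libraries of 23442935 to 28814802 counts gave each measured member at least 179 counts.

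The rule for named genes took all 35 members by complex, other pathway genes called by the model, Hspa5, and marker lists as sums. Members and lists were chosen with earlier results of these data known. Of 200 listed symbols, 193 were matched by symbol, 2 by Ensembl identifier and 3 by RefSeq synonym. Lists of lymphocyte, erythroid, stellate cell, endothelium and bile duct genes were also summed. Alternatives were other scalings, filters, priors, thresholds, FPKM with a pseudocount, DESeq2, limma-voom, a non-robust fit and each factor alone. FS versus VS and VI versus VS share VS, FI versus VI and FI versus FS share FI, FS versus VS and FI versus FS share FS, and VI versus VS and FI versus VI share VI.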

Additional observations from a re-analysis of the deposited data

Results flagged for a closer look

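For 10 members (background 3.04%), IT went with a higher level in vehicle livers and a lower level in fibril livers, with both counting intervals away from 0. The difference between both changes (fibril minus vehicle, log2) was -1.24 for Sec23b, -0.63 for Spcs2, -0.62 for Srpr, -0.54 for Serp1, -0.51 for Sec13, -0.48 for Stt3a, -0.44 for Sec63, -0.38 for Sec24d, -0.37 for Srp72 and -0.23 for Stt3b. With 1 pooled library per group this difference was not tested. Some genes passed narrowly: the bound next to 0 was -0.0008 for Stt3b in FI versus FS, and 0.003 for Stt3a and 0.01 for Sec13 in VI versus VS. The list was not recomputed under other scalings. Sec23b had the widest split, 0.43 with IT in vehicle livers against -0.81 in fibril livers, and Stt3b the narrowest, 0.15 and -0.08.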

How the results depend on the processing

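With DESeq2 size factors, total counts or FPKM in place of TMM, 34 of 34 members stayed higher in FS versus VS, 28 or 29 were higher in FI versus VI and between 21 and 23 in VI versus VS; the largest shift of the all-gene median was to -0.07 on the log2 scale (total counts, FI versus FS). Of the summary values recomputed, 134 stayed within their tolerance and 14 moved. In FS versus VS, 18 genes were higher at 1.5-fold and 2 exceeded 2-fold with VI in place of VS; without a filter on low counts 1 gene, Srp54a, was past 2-fold lower in FS versus VS, and 1 in VI versus VS. In FI versus VI, 3 were higher at 1.5-fold. In FI versus FS, 4 were lower at 1.5-fold, and the number higher was 2 with DESeq2 size factors and without a filter, and 0 with total counts and with FPKM at either pseudocount. The model called 18 members with amyloidosis without a filter (7.62% of all genes) and 0 with the factor alone (0.068%). With a filter of 5 CPM it called 6 (4.56%), and Serp1, Ssr3, Spcs3 and Stt3a were lost. Among single genes, the IT coefficient reversed around 0 for Sec24d (-0.00294 in limma-voom, -0.0403 with total counts, -0.00112 with the 5 CPM filter and -0.0413 with the factor alone), Srp72 (-0.000260 with total counts), Srpr (-0.0167 with total counts and -0.00844 with the factor alone), Stt3b (-0.00948 with total counts) and Serp1 (-0.000109 with the factor alone); the cause was not tested. No paired analysis was possible because each group is 1 pooled library, and for the same reason leaving out a replicate could not be run. Counting error was small for the 34 genes, while the spread between mice could not be measured.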
